A study of Mus musculus with 6 samples.

Results

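The Toll-like receptor family was examined in macrophage-lineage cells sorted from the aorta-gonad-mesonephros (AGM) of mouse embryos, the tissue around the dorsal aorta where blood stem cells arise. The 10 members Tlr1, Tlr2, Tlr3, Tlr4, Tlr5, Tlr6, Tlr7, Tlr8, Tlr9 and Tlr13 were taken by symbol from the 51912 genes of the count files, and all 10 were found. They were divided by the place where the receptor meets its ligand into 5 receptors of the cell surface (Tlr1, Tlr2, Tlr4, Tlr5 and Tlr6) and 5 of endosomes (Tlr3, Tlr7, Tlr8, Tlr9 and Tlr13). All embryos were of day E10.5 and were MacGreen, a reporter strain with EGFP under the Csf1r promoter, and green cells therefore include macrophages and some of their precursors. GFP-positive cells with surface CD206, the mannose receptor encoded by Mrc1 (GFP+CD206+, here CD206pos), were set against GFP-positive cells without it (GFP+CD206-, here CD206neg). Each group had 3 libraries, the design names 3 independent litters, and the AGM number of a sample (1, 2 or 3) was taken as its litter. Each library pooled cells of 3 to 5 AGM.

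Toll-like receptors are membrane proteins whose outer part, built of leucine-rich repeats, binds microbial molecules and some products of damaged cells. Receptors of the cell surface recognise lipids and proteins, while endosomal receptors recognise nucleic acids. Their inner TIR domain recruits the adaptors MyD88 or TRIF, which lead to NF-kB and interferon regulatory factors and to transcription of cytokine genes. Macrophages are among the cells in which these receptors are best known.

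Sequences are shown for the genes whose counts the results turn on. Tlr1 and Tlr6 are neighbours on chromosome 5 with a shared coding stretch, and a read that lies wholly within it cannot be placed in one of these genes. The longest identical run between their open reading frames had 229 bases, at positions 1468 to 1696 of the Tlr1 frame and 1507 to 1735 of the Tlr6 frame (GENCODE M21 transcripts, in the sense of the genes, 5′ to 3′).
Tlr1 and Tlr6 shared run: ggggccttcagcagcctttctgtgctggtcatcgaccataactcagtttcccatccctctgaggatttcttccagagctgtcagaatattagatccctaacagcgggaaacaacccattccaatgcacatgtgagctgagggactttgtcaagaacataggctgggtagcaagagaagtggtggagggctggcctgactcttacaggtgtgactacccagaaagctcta
Of the 50-base words of the longest transcript, 15.3% in Tlr1 and 12.6% in Tlr6 also occurred in a transcript of another gene, nearly always in the other gene of this pair. In Tlr3 the share was 1.6%, with Gm45542, whose exons on the other strand overlap 7.3% of the Tlr3 exon bases. No such word was found for Tlr2, Tlr4, Tlr5, Tlr7, Tlr8, Tlr9 or Tlr13. Reads in shared stretches are left out by the counting program's defaults where they align to both genes, so the levels of Tlr1, Tlr6 and Tlr3 are less certain than those of the other members.

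RefSeq windows of 300 bases (GRCm38.p6, 250 before and 50 after the annotated start) were at hand for 8 of the 10 members. They are shown for Tlr1, which rose in CD206pos, and for Tlr2, which had the highest level and did not pass the test, in the direction of transcription (for Tlr1, the one of its windows with a match). Capitals mark a match to the PU.1 motif GAGGAAGT or to the NF-kB motif (GGG, 2 bases of any kind, TT, 1 base of any kind, CC), each searched on both strands. PU.1 is a transcription factor required for macrophages.
Tlr1 (chr5:64933509-64933808, minus strand): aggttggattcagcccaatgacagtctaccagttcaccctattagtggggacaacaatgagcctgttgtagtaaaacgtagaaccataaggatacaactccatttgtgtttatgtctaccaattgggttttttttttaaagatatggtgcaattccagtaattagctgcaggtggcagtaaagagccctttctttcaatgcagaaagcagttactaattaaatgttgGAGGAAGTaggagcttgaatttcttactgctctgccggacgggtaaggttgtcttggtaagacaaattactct
Tlr2 (chr3:83841559-83841858, minus strand): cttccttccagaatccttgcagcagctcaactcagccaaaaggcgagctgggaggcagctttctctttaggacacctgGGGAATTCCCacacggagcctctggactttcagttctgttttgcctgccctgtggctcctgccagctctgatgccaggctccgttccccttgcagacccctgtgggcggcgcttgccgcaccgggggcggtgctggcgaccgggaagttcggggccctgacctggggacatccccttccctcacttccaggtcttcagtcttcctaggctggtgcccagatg
The PU.1 match of Tlr1 began 23 bases before the annotated start, and the NF-kB match of Tlr2 began 172 bases before it. The PU.1 motif occurred in 3.2% and the NF-kB motif in 4.79% of all 32851 windows of this length. Among the 10 windows of the 8 members, 2 held the PU.1 motif and 2 the NF-kB motif. A motif of interferon regulatory factors (GAAA, 2 bases of any kind, GAAA) was also searched. It occurred in 1 of these windows, of Tlr6, and in 3.44% of all windows. A match describes the letters of a window and shows no binding.

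Values are CPM, the reads of a gene scaled to a common library size by TMM, which corrects for differences in library composition, and are given as mean ± SD of 3 libraries unless listed per litter. Levels of different genes are compared only per kilobase of exon (RPKM, from the same scaled CPM). A log2 fold change is CD206pos over CD206neg, and a gene is called where edgeR's quasi-likelihood test gave a Benjamini-Hochberg adjusted p under 0.05 over all 12668 genes tested. Libraries held 16730846 to 18214283 reads in genes, so that 3 reads stand for 0.163 to 0.183 scaled CPM. Reads carry no molecular identifiers, so floors cover counting error only. That the number marks the litter is an inference, and p-values measure the spread between these pools of embryos.

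All 9 listed macrophage genes were detected in every library. Their summed level was 4889 to 7730 CPM in CD206pos and 3450 to 4377 CPM in CD206neg libraries, with 4 of 9 called higher. Itgam went the other way, at 17.8 ± 2.76 CPM in CD206pos and 34.5 ± 8.59 CPM in CD206neg, and was lower in every litter. It did not pass edgeR's test (adjusted p = 0.10) or limma-voom (0.065), while DESeq2 called it (0.030). Genes listed for some other cell types also differed between the groups. The 6 blood progenitor genes summed to 24.9 to 52.9 CPM in CD206pos and 656 to 921.4 CPM in CD206neg (5 of 6 called lower, Kit at 0 in CD206pos). The 8 granulocyte precursor genes summed to 17.4 to 69.7 CPM in CD206pos and 1861 to 2852 CPM in CD206neg, with 6 called lower and Ctsg, S100a8, S100a9, Ms4a3 and Ly6g at 0 reads in CD206pos. The 5 B lymphoid genes summed to at most 0.4 CPM in CD206pos and 3.16 CPM in CD206neg. The 4 plasmacytoid dendritic cell genes summed to 234.7 to 279.0 CPM in CD206pos and 163.2 to 177.3 CPM in CD206neg, with none called of the 3 tested. Ccr9 had no read in any library. Siglech was at 25.2 ± 14.7 CPM in CD206pos and 6.80 ± 2.65 CPM in CD206neg (edgeR adjusted p = 0.11, and 0.041 with litters blocked and 0.011 with DESeq2). Tcf4 was at 151.0 ± 26.2 CPM in CD206pos and 82.6 ± 19.9 CPM in CD206neg (edgeR adjusted p = 0.067, and 0.0056 with DESeq2 and 0.029 with limma-voom). Both were higher in CD206pos in 3 of 3 litters. Bst2, the remaining tested gene of this list, was at 83.6 ± 18.7 CPM in CD206pos and 81.6 ± 11.9 CPM in CD206neg (edgeR adjusted p = 0.97). In pooled RNA, fewer macrophages and less receptor RNA per macrophage cannot be told apart, and the part of the progenitor, granulocyte and plasmacytoid dendritic cell genes in the results below was not tested.

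Of the 10 receptors, 2 were called higher in CD206pos, none was called lower and 8 were not called. Tlr7 and Tlr1 were the called members. Over all genes tested, 2.97% were called higher and 1.90% lower, 4.87% in either direction. The median log2 fold change was 1.06 over the 10 members and -0.004 over all genes tested. All 10 passed the filter on low counts. CD206pos libraries lay wholly above CD206neg libraries for 4 members (Tlr1, Tlr4, Tlr7 and Tlr13), where 12.8% of all genes tested did so, and wholly below for 1 member, Tlr2, where 11.8% did so. At an unadjusted p under 0.05 there were 5 members, and 17.6% of all genes tested. DESeq2 and limma-voom called 4 members higher and the fit with litters blocked called 3, where they called 5.21%, 4.19% and 3.44% of all genes tested higher.

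**Figure D1:**
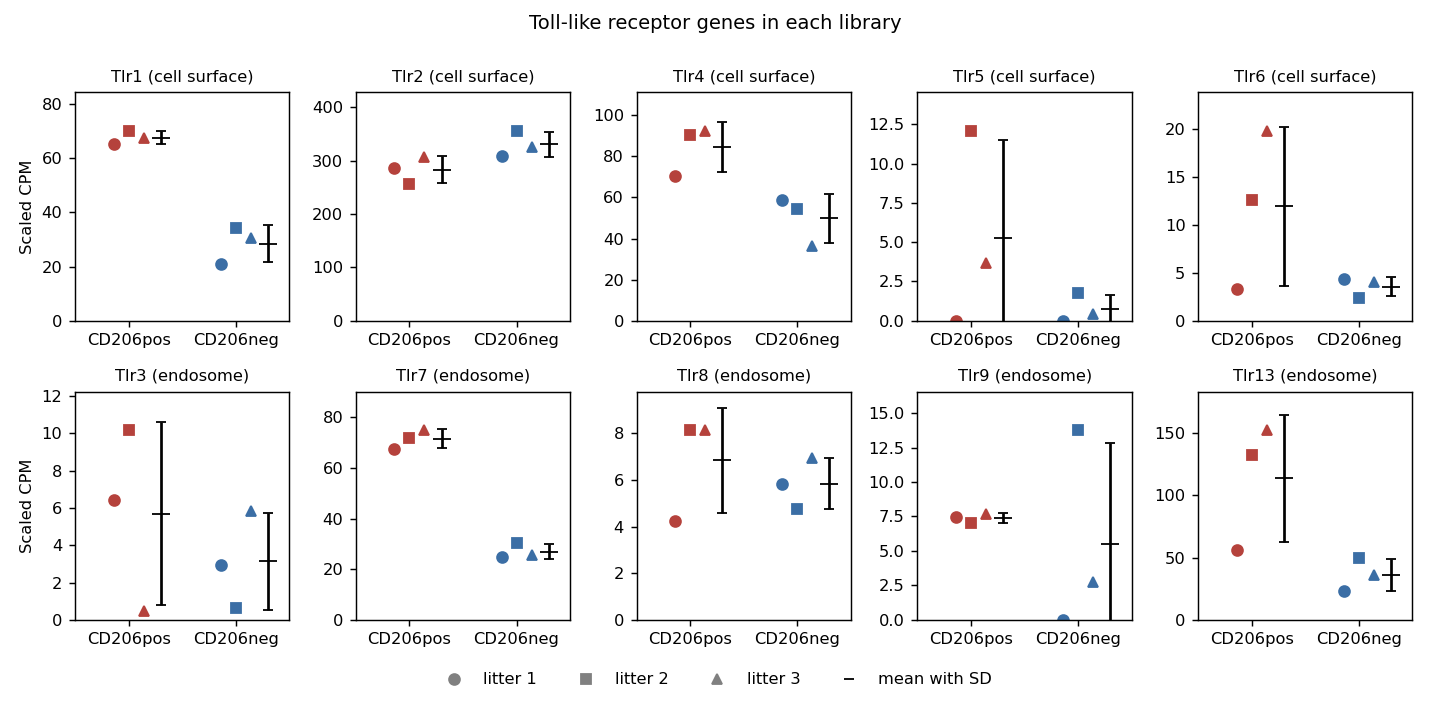
Scaled CPM (vertical axes, each from 0 on its own scale) of the 10 Toll-like receptor genes in each library, CD206pos in red to the left of CD206neg in blue. Symbols mark the litter and the bar beside them the mean with SD of 3 libraries, clipped at 0 for Tlr5 and Tlr9. Tlr1, Tlr4, Tlr7 and Tlr13 have all CD206pos points above all CD206neg points, and Tlr2 has the reverse.

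Among receptors of endosomes, Tlr7, which recognises single-stranded RNA, was higher in CD206pos cells of every litter (ENSMUSG00000044583.13, GRCm38 chromosome X, 167304929 to 167330558, minus strand). Tlr7 had 67.5, 71.9 and 75.1 CPM in the CD206pos libraries of litters 1, 2 and 3, against 24.7, 30.3 and 25.7 CPM in the CD206neg libraries. The groups lay far apart, and the spread within each was small. The means were 71.5 ± 3.84 CPM in CD206pos and 26.9 ± 3.01 CPM in CD206neg (SD, n = 3 each) and the log2 fold change was 1.41 ± 0.19 (SE), which passed edgeR's test (adjusted p = 0.0047). Leaving out any single library kept the Tlr7 call (adjusted p between 0.013 and 0.036). With both libraries of a litter left out, it passed without litter 1 (adjusted p = 0.039) and missed without litter 2 or litter 3 (adjusted p = 0.13 and 0.089).

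Tlr13, a receptor for bacterial ribosomal RNA that mice have and humans lack, was higher in CD206pos of every litter but missed the threshold (ENSMUSG00000033777.3, GRCm38 chromosome X, 106143204 to 106160493, plus strand). Tlr13 had 55.8, 132.5 and 152.8 CPM in CD206pos and 23.3, 49.4 and 35.7 CPM in CD206neg (litters 1, 2 and 3). The CD206pos library of litter 1 stood well below the other two CD206pos libraries and only just above the highest CD206neg library. Its log2 fold change was 1.65 ± 0.40 (SE), at an adjusted p of 0.054. With the litter as a block it was 1.60 with an adjusted p of 0.0099, and DESeq2 and limma-voom also called it (adjusted p = 0.00035 and 0.023). Without the CD206pos library of litter 1 the adjusted p of Tlr13 was 0.021, and without any other single library it was 0.12 to 0.22. With both libraries of litter 1 left out it passed (adjusted p = 0.028), and with those of litter 2 or litter 3 left out it did not (adjusted p = 0.31 and 0.30).

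Tlr8, encoded next to Tlr7 and in humans a sensor of single-stranded RNA, was low in both groups (ENSMUSG00000040522.5, GRCm38 chromosome X, 167242696 to 167264329, minus strand). It had 4.22, 8.13 and 8.16 CPM in CD206pos and 5.83, 4.75 and 6.94 CPM in CD206neg (litters 1, 2 and 3), with overlapping groups. Its log2 fold change of 0.23 ± 0.46 (SE) did not pass (adjusted p = 0.88). Between these neighbouring genes, Tlr7 stood at 17.5 ± 0.94 RPKM and Tlr8 at 1.91 ± 0.63 RPKM in CD206pos, and at 6.59 ± 0.74 and 1.63 ± 0.30 RPKM in CD206neg.

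Tlr7, Tlr8 and Tlr13 are X-linked. Xist, the transcript of the inactive X chromosome, had 935, 0 and 1109 reads in CD206pos and 394, 0 and 1931 reads in CD206neg (litters 1, 2 and 3), so that litter 2 had none in either library. In litter 2 alone the log2 difference, CD206pos minus CD206neg, was 1.24 for Tlr7, 0.78 for Tlr8 and 1.42 for Tlr13. In litters 1 and 3 it was 1.45 and 1.55 for Tlr7, -0.47 and 0.23 for Tlr8, and 1.26 and 2.10 for Tlr13. The differences of Tlr7 and Tlr13 were positive in litters 1, 2 and 3, of which only litter 2 lacked Xist reads. The part of embryo sex in these differences was not tested.

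Tlr9, the receptor for unmethylated CpG DNA, had an even level in CD206pos and an uneven one in CD206neg (ENSMUSG00000045322.10, GRCm38 chromosome 9, 106222598 to 106226883, plus strand). It had 122, 122 and 133 reads in the CD206pos libraries (7.46, 6.99 and 7.69 CPM) and 0, 238 and 49 reads in the CD206neg libraries (0, 13.8 and 2.76 CPM, litters 1, 2 and 3). The 0 of litter 1 allows up to 0.163 CPM. The CD206neg values lay on either side of all CD206pos values, and the log2 fold change of 0.42 ± 1.25 (SE) did not pass (adjusted p = 0.92). Without the CD206neg library of litter 1 it was -0.16, and without that of litter 2 it was 2.41 (adjusted p = 0.98 and 0.55).

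Tlr3, the receptor for double-stranded RNA that signals through TRIF, varied between litters in both groups (ENSMUSG00000031639.12, GRCm38 chromosome 8, 45395665 to 45411080, minus strand). It had 105, 178 and 8 reads in CD206pos and 54, 11 and 103 reads in CD206neg (litters 1, 2 and 3). The difference was positive in litters 1 and 2 and negative in litter 3. The log2 fold change was 0.86 ± 1.06 (SE, adjusted p = 0.77).

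Of the cell surface receptors, Tlr1 was higher in CD206pos and its partner Tlr2 was not. Tlr1 pairs with Tlr2 to bind triacylated lipopeptides of bacteria (ENSMUSG00000044827.10, GRCm38 chromosome 5, 64924679 to 64933563, minus strand). Tlr1 had 65.2, 70.3 and 67.6 CPM in CD206pos and 20.8, 34.2 and 30.4 CPM in CD206neg (litters 1, 2 and 3). Every CD206pos library was above every CD206neg library. This gave a log2 fold change of 1.25 ± 0.23 (SE), past the threshold in edgeR's test (adjusted p = 0.019). The Tlr1 call was lost without the CD206neg library of litter 2 or 3 (adjusted p = 0.055 and 0.059), without the CD206pos library of litter 2 or 3 (adjusted p = 0.10 and 0.071), and without both libraries of litter 1, 2 or 3 (adjusted p = 0.062, 0.20 and 0.15).

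Tlr2, which binds bacterial lipoproteins together with Tlr1 or Tlr6, had the highest level of the family in every library (ENSMUSG00000027995.10, GRCm38 chromosome 3, 83836272 to 83841767, minus strand). It had 285.4, 256.0 and 306.5 CPM in CD206pos and 309.4, 356.6 and 326.3 CPM in CD206neg (litters 1, 2 and 3). The highest CD206pos library lay just under the lowest CD206neg library. The log2 fold change was -0.23 ± 0.13 (SE) and did not pass (adjusted p = 0.45).

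Tlr6, the partner of Tlr2 for diacylated lipopeptides, was low and uneven in CD206pos (ENSMUSG00000051498.6, GRCm38 chromosome 5, 64952031 to 64960097, minus strand). It had 3.30, 12.6 and 19.8 CPM in CD206pos and 4.30, 2.37 and 4.00 CPM in CD206neg (litters 1, 2 and 3). Litter 1 was slightly lower in CD206pos, and the other two litters were higher. The log2 fold change was 1.74 ± 0.64 (SE, adjusted p = 0.20), and without the CD206pos library of litter 1 it was 2.19 with an adjusted p of 0.046. Without any other single library Tlr6 did not pass (adjusted p between 0.30 and 0.51), and without the CD206pos library of litter 3 its log2 fold change was 1.14.

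Tlr4, the receptor for lipopolysaccharide, was at 70.6, 90.5 and 92.6 CPM in CD206pos and 58.9, 54.3 and 36.2 CPM in CD206neg of litters 1, 2 and 3 (ENSMUSG00000039005.13, GRCm38 chromosome 4, 66827584 to 66930284, plus strand). The groups did not overlap, with the smallest difference in litter 1. The log2 fold change of 0.76 ± 0.23 (SE) missed the threshold in edgeR's test (adjusted p = 0.12) and again when litters were blocked (adjusted p = 0.12), while DESeq2 and limma-voom called it (adjusted p = 0.035 and 0.042). Tlr5, the receptor for flagellin, had 0, 211 and 64 reads in CD206pos and 0, 30 and 8 reads in CD206neg of litters 1, 2 and 3 (ENSMUSG00000079164.8, GRCm38 chromosome 1, 182954788 to 182976044, plus strand). No Tlr5 read was seen in either library of litter 1, which allows up to 0.183 CPM in CD206pos and 0.163 CPM in CD206neg, and its log2 fold change of 2.84 ± 1.80 (SE) did not pass (adjusted p = 0.49). It was 1.33 without the CD206pos library of litter 2 and 4.51 without the CD206neg library of litter 2 (adjusted p = 0.88 and 0.47).

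**Figure D2:**
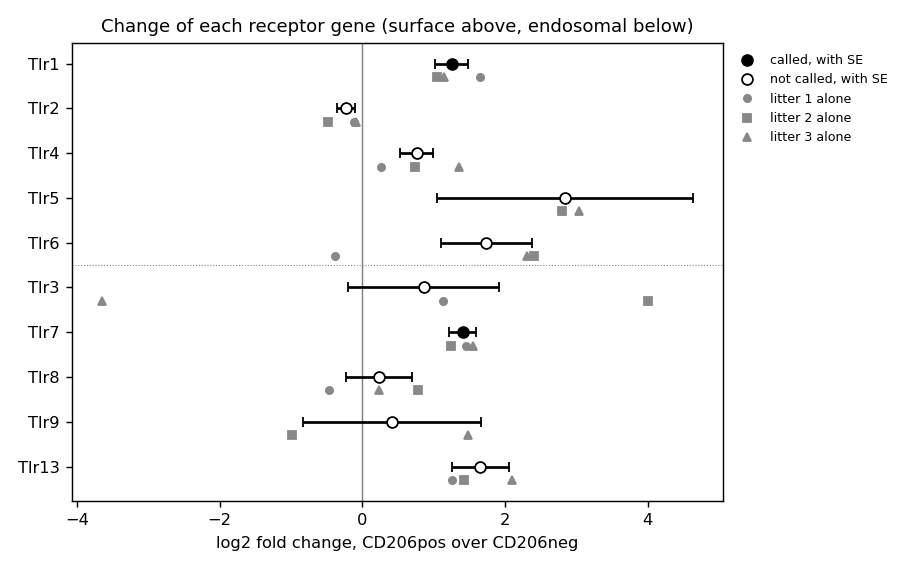
Log2 fold change (horizontal axis, CD206pos over CD206neg) of each receptor gene from edgeR with SE bars, filled where called, with the difference of each litter alone in grey beneath where both libraries had reads. Tlr1 and Tlr7 are called at 1.25 and 1.41, the 3 litters of each lie close together, and those of Tlr3 run from -3.65 to 4.00.

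Per exon length, Tlr2 led the family in both groups, with 93.8 ± 8.41 RPKM in CD206pos and 109.7 ± 7.94 RPKM in CD206neg, and no other member came near it. In CD206pos it was followed by Tlr13 (27.8 ± 12.5 RPKM), Tlr1 (20.2 ± 0.77 RPKM), Tlr7 (17.5 ± 0.94 RPKM) and Tlr4 (15.2 ± 2.18 RPKM). In that order the libraries of Tlr13 and Tlr1 overlapped, as did those of Tlr7 and Tlr4, while all libraries of Tlr1 were above those of Tlr7. In CD206neg the same 4 genes followed Tlr2, at 8.96 ± 2.16 RPKM for Tlr4, 8.84 ± 3.20 RPKM for Tlr13, 8.50 ± 2.06 RPKM for Tlr1 and 6.59 ± 0.74 RPKM for Tlr7, with overlap between each pair of neighbours. The other 5 members, Tlr3, Tlr5, Tlr6, Tlr8 and Tlr9, averaged 1.09 to 3.20 RPKM in CD206pos and 0.15 to 1.63 RPKM in CD206neg. Neighbours in that order overlapped as well.

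Endosomal receptors made up a larger part of the family's summed level in CD206pos. Their share of the summed RPKM of all 10 members was 21.4%, 30.5% and 29.4% in CD206pos and 10.4%, 15.2% and 13.1% in CD206neg (litters 1, 2 and 3), with means of 27.1 ± 4.97% in CD206pos and 12.9 ± 2.41% in CD206neg (SD, n = 3 each). The ranges of the groups did not overlap. The endosomal sum was 50.5 ± 13.8 RPKM in CD206pos and 19.2 ± 5.51 RPKM in CD206neg, and the surface sum was 133.6 ± 9.64 RPKM in CD206pos and 128.3 ± 9.78 RPKM in CD206neg. Tlr2 alone made up 51.3 ± 6.28% of the family sum in CD206pos and 74.5 ± 2.23% in CD206neg. With Tlr2 set aside, the surface receptors summed to 39.8 ± 5.77 RPKM in CD206pos and 18.6 ± 2.16 RPKM in CD206neg, so that the surface receptors other than Tlr2 were also higher in sum in CD206pos. These sums and shares describe the libraries and were not tested. By gene, the median log2 fold change was 1.25 over the 5 surface receptors and 0.86 over the 5 endosomal receptors. In each class 1 was called higher. These medians include Tlr3, Tlr5, Tlr6, Tlr8 and Tlr9, which had low counts. Among the other members the log2 fold change was 1.41 for Tlr7 and 1.65 for Tlr13, both endosomal. For the surface receptors Tlr1, Tlr4 and Tlr2 it was 1.25, 0.76 and -0.23. Which class changed more was not tested.

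**Figure D3:**
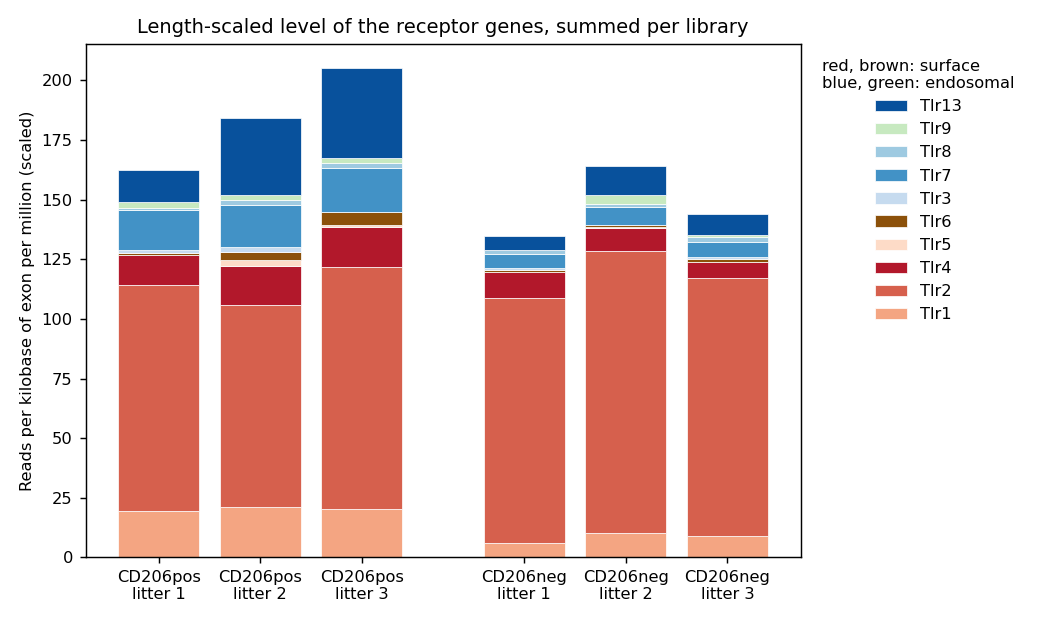
Length-scaled level in RPKM (vertical axis) of the 10 receptor genes stacked for each library, CD206pos at left and CD206neg at right. Tlr2 is the largest block in every library, and the endosomal blocks at the top take 21.4% to 30.5% of the bar in CD206pos and 10.4% to 15.2% in CD206neg.

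The receptors were also set against Csf1r, the colony-stimulating factor receptor whose promoter drives the reporter, a ratio chosen after the values were seen. Csf1r had 2284 ± 615.4 CPM in CD206pos and 1601 ± 157.6 CPM in CD206neg. Tlr7 had 4.17, 2.99 and 2.65 reads per 100 Csf1r reads in CD206pos and 1.61, 1.70 and 1.72 in CD206neg (litters 1, 2 and 3). Tlr1 had 4.02, 2.93 and 2.39 in CD206pos and 1.36, 1.92 and 2.04 in CD206neg, and Tlr13 had 3.45, 5.52 and 5.39 in CD206pos and 1.52, 2.77 and 2.40 in CD206neg. The groups did not overlap on this scale for Tlr7, Tlr1 or Tlr13. Tlr4 had 4.36, 3.77 and 3.27 in CD206pos and 3.84, 3.05 and 2.43 in CD206neg, with overlap. Tlr2 had 17.62, 10.66 and 10.82 in CD206pos and 20.19, 20.03 and 21.92 in CD206neg, without overlap and lower in CD206pos.

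The remaining genes of the pathway were examined by role. These lists were chosen with earlier results of these data known, so the counts called in them describe the lists only. Tlr11 and Tlr12, which recognise profilin of protozoan parasites in mice, were outside the family list: Tlr11 had no read in any library, and Tlr12 was at 3.37 ± 3.82 CPM in CD206pos and 1.73 ± 1.34 CPM in CD206neg (adjusted p = 0.82). Of 11 genes for ligand binding, co-receptors and ligand breakdown, 2 rose, 1 fell and 8 did not pass (median log2 fold change 0.48). Over all genes tested, 2.97% were called higher and 1.90% lower. Pld3, a lysosomal exonuclease that degrades nucleic acid ligands of endosomal receptors, rose 2.66-fold (136.1 ± 47.9 CPM in CD206pos against 51.1 ± 10.3 CPM in CD206neg, adjusted p = 0.029). Its relative Pld4 was at 524.7 ± 180.0 CPM in CD206pos and 574.0 ± 124.2 CPM in CD206neg (adjusted p = 0.88). Cd36, a scavenger receptor that hands lipids to Tlr2, rose 4.41-fold (adjusted p = 0.015). Lbp, which carries lipopolysaccharide to CD14, fell to 2.36 ± 0.72 CPM in CD206pos, against 17.4 ± 4.70 CPM in CD206neg, a log2 fold change of -2.88 ± 0.42 (SE, adjusted p = 0.0071).

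The Tlr4 co-receptor gene Cd14 did not pass, at 117.8 ± 25.7 CPM in CD206pos and 76.5 ± 6.43 CPM in CD206neg (adjusted p = 0.13). The groups did not overlap for Cd14. Ly86, encoding MD-1, which binds the Tlr4-like receptor CD180, was at 356.1 ± 49.5 CPM in CD206pos and 255.5 ± 79.2 CPM in CD206neg (adjusted p = 0.35). Without the CD206neg library of litter 2 the Lbp call was lost (adjusted p = 0.055). The Cd36 call was lost without the CD206pos library of litter 2 (adjusted p = 0.078) or any one of the CD206neg libraries (adjusted p = 0.072, 0.061 and 0.064 for litters 1, 2 and 3). The Pld3 call held only without the CD206pos library of litter 1 and was lost without any other single library (adjusted p between 0.060 and 0.14).

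None of 9 genes of receptor folding and transport and none of 5 tested adaptor genes was called in edgeR's test. At an unadjusted p under 0.05 these lists held 1 and 0 genes, and neither DESeq2 nor limma-voom called any of them. All 5 tested adaptors were higher in CD206pos in 3 of 3 litters, and 4 of them lay wholly above CD206neg, as did 12.8% of all genes tested. Unc93b1, the chaperone that takes nucleic acid receptors to endosomes, was at 530.0 ± 201.7 CPM in CD206pos and 411.5 ± 90.0 CPM in CD206neg (adjusted p = 0.60). Hsp90b1, encoding the folding chaperone gp96, was at 2306 ± 194.3 CPM in CD206pos and 1834 ± 129.1 CPM in CD206neg (adjusted p = 0.20), and Lrrc59 at 273.1 ± 17.9 CPM in CD206pos and 307.7 ± 29.3 CPM in CD206neg (adjusted p = 0.59). Myd88, the adaptor shared by nearly all members, was at 230.4 ± 18.3 CPM in CD206pos and 188.9 ± 28.1 CPM in CD206neg (adjusted p = 0.40). Tirap, which bridges Tlr2 and Tlr4 to MyD88, was at 48.8 ± 7.56 CPM in CD206pos and 37.1 ± 2.51 CPM in CD206neg (adjusted p = 0.37). Pik3ap1, encoding the adaptor BCAP, was at 170.0 ± 24.8 CPM in CD206pos and 133.7 ± 11.9 CPM in CD206neg (adjusted p = 0.31). The median log2 fold change was 0.10 over the transport genes and 0.36 over the adaptors.

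Downstream, 1 of 19 kinases and ubiquitin ligases rose and 18 did not pass (median log2 fold change -0.06), where 2.97% of all genes tested were called higher. The gene that rose was Map3k8, encoding the kinase Tpl2 that carries the signal to the ERK pathway, at 78.1, 95.6 and 115.1 CPM in CD206pos and 26.5, 36.9 and 37.3 CPM in CD206neg of litters 1, 2 and 3 (log2 fold change 1.52 ± 0.22 SE, adjusted p = 0.0076). None of 10 transcription factor genes was called (2 at an unadjusted p under 0.05, none by DESeq2 or limma-voom, median 0.11). Of 15 tested inhibitors of the pathway, 4 rose and 11 did not pass (median 0.34), where 2.97% of all genes tested were called higher. Tnfaip3, encoding the ubiquitin-editing enzyme A20, was at 141.7 ± 54.8 CPM in CD206pos and 70.3 ± 24.9 CPM in CD206neg. It missed the threshold in edgeR's test (adjusted p = 0.17) and in limma-voom (0.081), and passed with litters blocked (adjusted p = 0.025) and in DESeq2 (0.035). Tnfaip3 was singled out after its values were seen. Zfp36, whose product destabilises cytokine mRNA, was at 524.9 ± 38.2 CPM in CD206pos and 265.9 ± 26.1 CPM in CD206neg (adjusted p = 0.0052). Nfkbiz, Nfkbia and Dusp1, encoding IkappaB-zeta, IkappaB-alpha and a MAP kinase phosphatase, rose 2.59-fold, 2.14-fold and 2.14-fold. IkappaB-zeta also activates some NF-kB target genes.

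Of 19 listed genes induced by the receptors, 12 were tested, of which 3 rose, 1 fell and 8 did not pass (median 0.92). The shares over all genes tested were 2.97% higher and 1.90% lower. Tnf, the cytokine gene, had 180.3, 117.2 and 148.0 CPM in CD206pos and 42.0, 58.8 and 36.3 CPM in CD206neg of litters 1, 2 and 3, without overlap (adjusted p = 0.0065). The chemokine genes Ccl4 and Cxcl2 rose 2.83-fold and 4.16-fold (adjusted p = 0.0086 and 0.031), and Cxcl2 missed the threshold when litters were blocked (adjusted p = 0.070) or in limma-voom (0.059). Cd83, a surface protein gene of activated antigen-presenting cells, singled out after its values were seen, was at 1175 ± 602.9 CPM in CD206pos and 395.9 ± 169.8 CPM in CD206neg. Its groups did not overlap, and it missed the threshold in edgeR's test (adjusted p = 0.061) and DESeq2 (0.058) but passed with litters blocked (adjusted p = 0.0017) and in limma-voom (0.022). Il12a, an interleukin 12 subunit gene, had 0 reads in every CD206pos library and 9.91, 9.90 and 1.58 CPM in CD206neg (adjusted p = 0.017), and limma-voom did not call it (adjusted p = 0.12). Ifnb1, Nos2, Acod1, Ccl5, Cd40, Il12b and Cxcl1 were below the filter, and Nos2 had no read. Cells had been digested for 45 min at 37 °C before sorting. The part of digestion in the levels of Zfp36, Dusp1, Nfkbia, Nfkbiz, Tnf, Ccl4 and Cxcl2, which are early response genes, was not tested. Nor was it tested for Tnfaip3 and Cd83.

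Of the 12 pathway genes named as called, Tnf, Zfp36 and Map3k8 stayed called without any single library (adjusted p at most 0.041, 0.032 and 0.049). Nfkbiz was lost without the CD206pos library of litter 2 (adjusted p = 0.051) and Ccl4 without the CD206neg library of litter 2 (adjusted p = 0.068). Nfkbia was lost without the CD206neg library of litter 1 or 2 (adjusted p = 0.051 and 0.076). Dusp1 was lost without the CD206neg library of litter 1 or 2 or the CD206pos library of litter 2 or 3 (adjusted p between 0.051 and 0.096). Il12a was lost without the CD206neg library of litter 1 or 2 or the CD206pos library of litter 2 (adjusted p between 0.058 and 0.10). Cxcl2 held only without the CD206pos library of litter 2 (adjusted p = 0.034). Without both libraries of litter 1, 7 of the 12 were called, without litter 2 none (adjusted p between 0.075 and 0.34, where 3 of all genes tested were called) and without litter 3 only Il12a (adjusted p = 0.027).

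**Figure D4:**
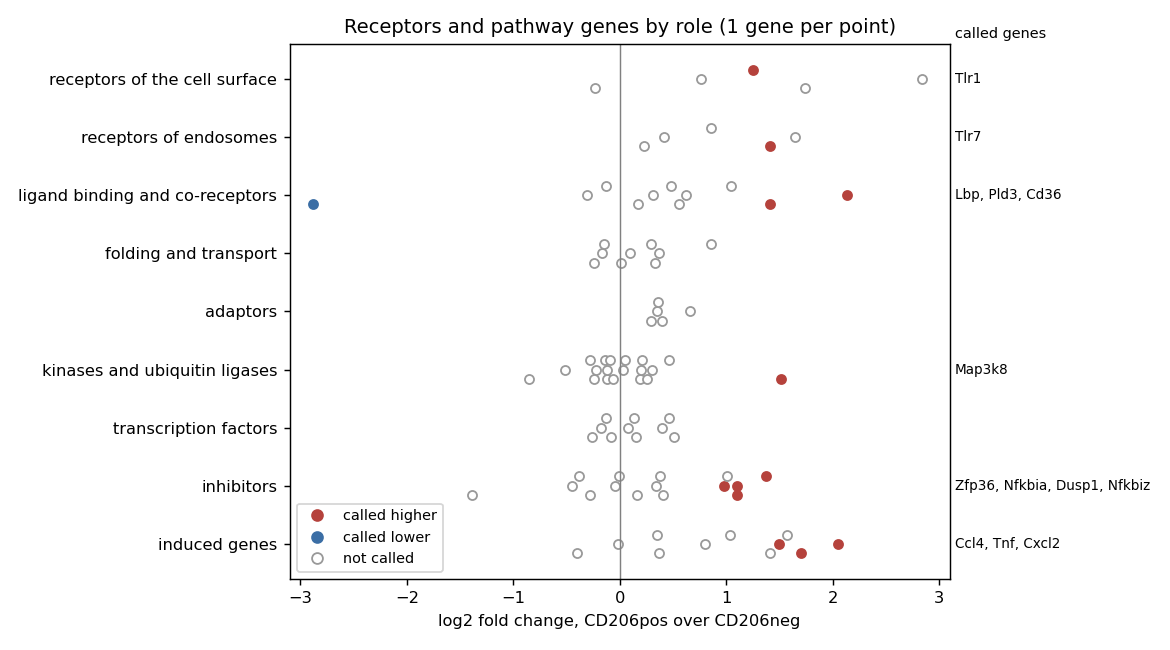
Log2 fold change (horizontal axis, CD206pos over CD206neg) of the tested receptor and pathway genes by role, 1 point per gene, filled where called, with the called genes written at right. Il12a, with no read in CD206pos, is left out because its fitted value is no bound. Tlr12, of the list of other Toll-like receptor genes, is also not drawn. The calls lie among the receptors, ligand binding, inhibitors and induced genes and at Map3k8, and no gene of transport, adaptors or transcription factors is filled.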

How the data were processed

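Each deposited file holds raw read counts per gene of 1 library. The authors counted reads over exons with featureCounts 1.5.2 and the GENCODE M14 annotation, per the file headers, with no option for strand, pairs, multi-mapping reads or overlapping genes. The length column (other, exon bases per gene) was deposited in the same files. Per the submitters' processing notes, the tools included STAR 2.3, Subread and FastQC, with builds mm10 and GRCm38.p5. The sources used here do not give the strand protocol or read length.

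Symbols came from GENCODE M21. Counts were tested with edgeR 4.0.16 (R 4.3.3): filterByExpr, TMM scaling, robust quasi-likelihood F test on group alone, Benjamini-Hochberg over all genes. The SE is the log2 fold change divided by the square root of F. DESeq2 1.42.0 and limma 3.58.1 were alternatives, as were other scalings and filters and each library or litter left out. The fit was tested on simulated data. The number after AGM in each title was taken as the litter, since the design names 3 litters. Deviations from the group means correlated at 0.09, 0.04 and 0.18 within litters 1, 2 and 3. Within a group, libraries differed by a chi-square per degree of freedom of 36.9 to 90.4, so none was a copy.

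The members, the pathway lists and the rule for named genes (all members, up to 4 called genes per list by p, and up to 3 of the highest in the ligand, transport, adaptor and other receptor lists) were chosen with earlier results of these data known. Of 7 adaptor symbols 6 were matched.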

Additional observations from a re-analysis of the deposited data

How the results depend on the processing

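Over all genes, 617 were called, against 1210 with DESeq2, and 557 to 814 under the other scalings, filters, limma-voom, the fit without robust estimation and the litter as a block. Scaled by library totals alone, the calls split into 273 higher and 284 lower, against 376 and 241 with TMM. Leaving out 1 library gave 190 to 561 calls, and leaving out a litter gave 3 to 307. With the litter as replicate block 703 genes were called. Of the members, 2 were called, against 4 with DESeq2 and with limma-voom (Tlr1, Tlr4, Tlr7 and Tlr13), 3 with the block and the looser and stricter filters (Tlr1, Tlr7 and Tlr13), 1 to 4 without 1 library and 0 to 2 without a litter. The block added Tlr13 to the called members, and among the pathway genes it added Tnfaip3 and Cd83 and lost Cxcl2. It changed no other call of a member or pathway gene. The endosomal share in CD206neg was 15.6% with no length scaling, against 12.9%, and in CD206pos 30.8% against 27.1%. Log2 fold changes that turned sign were not called in any fit: Tlr3 (-0.39) and Tlr8 (-0.08) without litter 2, Tlr9 without litter 1 (-0.17) or its CD206neg library (-0.16), Tlr12 with the block (-0.0021) or without the CD206pos library of litter 3 (-0.43), and Pld4 without the CD206pos library of litter 1 (0.09) or the CD206neg library of litter 3 (0.02). Without libraries or litters the log2 fold change ran from -0.39 to 2.19 for Tlr3, -0.08 to 0.48 for Tlr8, -0.17 to 2.42 for Tlr9, -0.43 to 1.81 for Tlr12 and -0.43 to 0.09 for Pld4. The cause was not tested. Tlr3, Tlr5, Tlr6, Tlr8 and Tlr9 had low counts, and their values are less certain. Libraries of the same group also differed widely for some of them. Tlr9 had 0, 238 and 49 reads in CD206neg, and Tlr3 had 105, 178 and 8 reads in CD206pos (litters 1, 2 and 3).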
